A study of Mus musculus with 6 samples.

Results

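The wild type (WT) libraries described here are 3 of the 6 libraries of a mouse study of Col15a1, the gene for the alpha chain of type XV collagen, in atherosclerosis. They were chosen by their titles, WT 1, WT 2 and WT 3, and the study design gives 1 animal per library. The mice were wild type on a C57BL/6 strain background and ate a Western diet for 18 weeks, after which their brachiocephalic arteries were flash frozen and total RNA was extracted. The other 3 libraries, from Col15a1-/- mice, were not used, so no genotype comparison was made. The labels give no age, no sex and no Apoe genotype. They also do not say whether the WT mice carried a Cre transgene, although the series title places the deletion in smooth muscle cells. The sample is labelled as atherosclerotic lesion and as a mixture of smooth muscle cells, epithelial cells, macrophages and others.

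The brachiocephalic artery is the first branch of the aortic arch and a site where hypercholesterolaemic mice form advanced lesions. Its media consists of contractile smooth muscle cells between elastic lamellae, lined by endothelium on the inside and bounded outside by an adventitia of fibroblasts, small vessels and nerve fibres, with fat beyond. In a lesion, macrophages take up lipoprotein and become foam cells, while part of the smooth muscle cells lose contractile proteins and secrete the matrix of the fibrous cap. RNA from a whole vessel averages all of these cells. A lower level of a cell type's genes can therefore mean fewer such cells or less of that RNA per cell, and these cannot be told apart.

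Total gene counts were 22223584 in WT 1, 26982005 in WT 2 and 26972541 in WT 3. Levels are given as TPM, the usual unit for transcripts, in which counts are divided by the exonic length of the gene and scaled to the same total in every library, so that genes of different length can be compared. Where 3 levels follow each other, they are in the order WT 1, WT 2, WT 3. In a transcript of 1000 bases, 1 TPM rested on 8.60, 10.4 and 10.3 counts. No pair of libraries held the same counts within sampling noise, so none was treated as a library deposited again. WT 2 stood apart from the other two: across genes, Pearson's r of log2(TPM + 1) was 0.940 between WT 1 and WT 2 and 0.945 between WT 2 and WT 3, against 0.987 between WT 1 and WT 3. These correlations are across genes, which are not independent replicates. Because there was 1 group, the values below are descriptions and no test was made.

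Of 24391 genes in the table, 14593 were at 1 TPM or more in all 3 libraries, and 4617 had no count in any of them. At 10 TPM or more in all libraries there were 9637 genes, at 100 TPM 1179 genes and at 1000 TPM 69 genes. The 100 most abundant genes together held 37.0% ± 5.11 of all TPM (SD, n = 3), with 38.5% in WT 1, 31.3% in WT 2 and 41.1% in WT 3. The share was also lowest in WT 2 among protein-coding genes alone, whose 100 most abundant held 24.7%, 20.5% and 25.6% of their TPM. Protein-coding genes held 77.3%, 81.9% and 74.8% of TPM.

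The top of the list was held by RNAs that do not code for protein. Rpph1, the RNA of ribonuclease P, which trims transfer RNA (chromosome 14, 51427122 to 51427446, mm9), was at 54005, 55852 and 58711 TPM. Rmrp, the RNA of the related enzyme RNase MRP (chromosome 4, 43505657 to 43505931), was at 43872, 48274 and 39311 TPM. Their levels differed little between libraries. Rn45s, the precursor of ribosomal RNA (chromosome 17, 39979942 to 39985774), took 6.25%, 2.04% and 9.57% of all counts. Lars2, the gene of mitochondrial leucyl-tRNA synthetase (chromosome 9, 123276058 to 123371782), took 2.23%, 0.154% and 2.99% of counts. The 95% Wilson intervals of these shares, which cover counting error only, ran from 6.24% to 6.26%, 2.04% to 2.05% and 9.56% to 9.58% for Rn45s. The hairpin Mir6236 (chromosome 9, 110183791 to 110183913) had the same order of libraries, with 48340.1, 2829 and 60462 TPM. Rn45s, Lars2 and Mir6236 were thus all lowest in WT 2, whereas the nuclear RNA Malat1 was even, at 9616, 10331 and 10015 TPM. Whether the reads on Lars2 and Mir6236 came from transcripts of those genes or from ribosomal RNA was not tested. Rn45s, Lars2, Mir6236, Rpph1, Rmrp and Malat1 together held 19.8%, 12.7% and 23.2% of TPM.

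Among protein-coding genes other than Lars2, the highest was Mgp, matrix Gla protein, an inhibitor of arterial calcification, at 8886, 6841 and 8046 TPM. Lyz2, the lysozyme of macrophages, followed at 6152, 6604 and 7854 TPM, and was highest in WT 3. Spp1, osteopontin, a secreted phosphoprotein made by lesion macrophages and by modulated smooth muscle cells, was at 5328, 6778 and 5889 TPM. The leading protein-coding genes thus belonged to matrix and to macrophages. Next came genes of every cell: Tmsb4x, which binds actin monomers, at 5199 ± 707 TPM, the elongation factor Eef1a1 at 4876 ± 247 TPM, and cytoplasmic actin Actb at 4829 ± 282 TPM (mean ± SD, n = 3). Col3a1, the chain of type III collagen, stood at 4429, 4121 and 3877 TPM, above the smooth muscle actin Acta2, which ranked 30 among all genes by mean TPM.

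**Figure D1:**
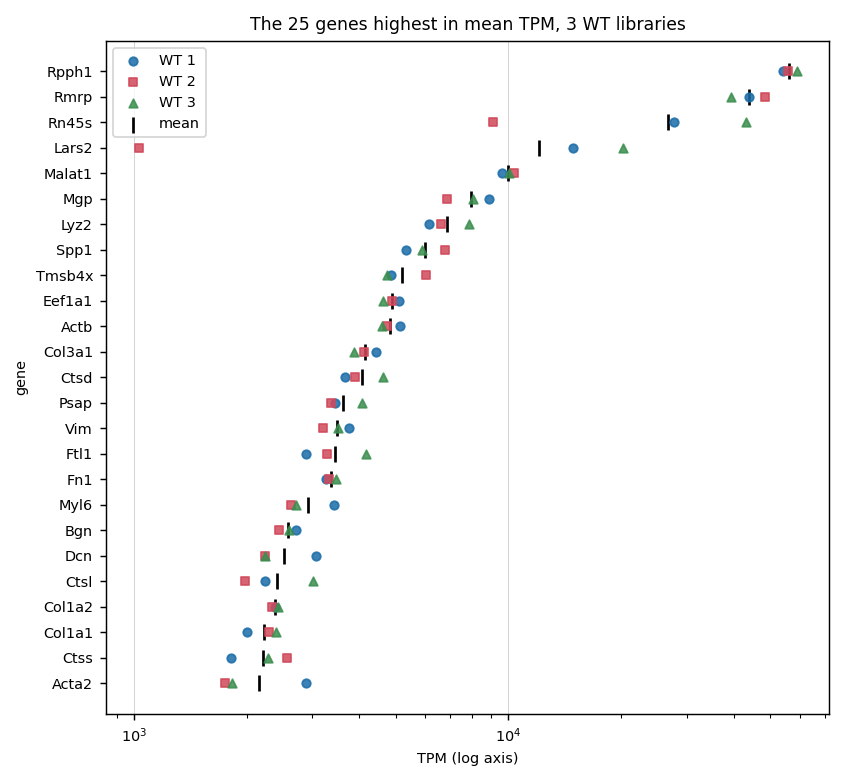
Levels of the 25 genes of highest mean TPM with an exonic length of at least 200 bases, in TPM on a log axis. Each symbol is 1 WT library and the black bar is their mean. Rn45s and Lars2 are the widest, with WT 2 far below the others, while most protein-coding genes lie within a narrow range.

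Contractile smooth muscle genes were abundant: of 15 fixed genes, all were at 1 TPM or more and 12 at 100 TPM or more in every library. Their summed level was 1.13%, 0.710% and 0.812% of all TPM. Acta2, the smooth muscle actin, was at 2890.2, 1750.1 and 1834 TPM (2158 ± 635 TPM as mean ± SD). Tagln, transgelin, an actin-binding protein of the contractile apparatus, was at 2435, 1603 and 1682 TPM. Myl9, the regulatory myosin light chain, was at 1620.3, 971 and 1094 TPM. In each of these the level of WT 1 was above those of WT 2 and WT 3, which lay close together. Myh11, the smooth muscle myosin heavy chain and the marker most restricted to this lineage, was at 1465, 947 and 1267 TPM and ranked 56. Itga8, the integrin alpha 8 chain, was at 764, 488 and 473 TPM. Des, desmin, the intermediate filament of muscle, was the lowest of the list at 22.6, 12.6 and 15.9 TPM. Of the 15 genes, 14 were highest in WT 1 and 14 lowest in WT 2. Smtn, smoothelin, was highest in WT 3, with 413, 260.5 and 455 TPM, and Itga8 was lowest in WT 3. After scaling by TMM factors, 14 were again highest in WT 1 and all 15 lowest in WT 2. Over the 15354 genes counted, 23.8% were highest in WT 1, 56.4% in WT 2 and 19.8% in WT 3, and 21.6% were lowest in WT 2. After TMM factors 28.7%, 37.5% and 33.8% were highest in the 3 libraries and 39.2% were lowest in WT 2, and the counts of members below are to be read beside these shares.

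A gene was called spread where its highest library was at least 2 times its lowest, among the 15354 genes with a mean of at least 10 counts and at least 1 TPM in the highest library. This held for 16.3% of those genes and for 0 of the 15 contractile genes, whose median ratio of highest to lowest was 1.61, against 1.32 over all genes counted. Since these genes had a common order of libraries, their promoters were read from RefSeq (GRCm38.p6) and searched for the CArG box, the binding motif of serum response factor, on both strands in the 250 bases before the annotated start. Only the strict form, with a core of A and T letters alone, was searched, so variants of the motif were not counted. It was found in 1 of the 11 contractile genes with an entry and in 1.47% of 32851 windows of that length. A gene was counted where any of its windows had a match, here and in the searches below. Actg2, Aoc3, Myh11 and Tagln had no entry. The match was in Myl9 (chr2:156775214-156775463, plus strand), beginning at position -161 and shown in capitals, 5′ to 3′ on the gene's strand. A match is a description of the letters and not evidence of binding.
Myl9: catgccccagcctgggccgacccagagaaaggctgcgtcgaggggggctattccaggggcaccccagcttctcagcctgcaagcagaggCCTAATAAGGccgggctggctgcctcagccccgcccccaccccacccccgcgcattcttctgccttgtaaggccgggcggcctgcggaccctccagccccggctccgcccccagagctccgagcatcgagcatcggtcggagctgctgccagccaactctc

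Genes that regulate or modulate the contractile state were far lower. Myocd, the coactivator that drives contractile genes through serum response factor, was at 38.6, 31.3 and 35.2 TPM. Srf itself was at 29.5, 27.8 and 28.042 TPM. Klf4, a factor of smooth muscle phenotypic modulation, was at 52.4, 40.5 and 46.5 TPM. In the list of smooth muscle channels and regulators 3 of 22 genes were spread, near the 16.3% of all genes. Itpr1, the calcium release channel of the endoplasmic reticulum, was its highest member at 139, 94.963 and 117 TPM. Ano1, a calcium-activated chloride channel, was at 106, 85.2 and 95.3 TPM. Mural and pericyte genes summed to 0.107%, 0.0804% and 0.0934% of TPM, led by Rgs5, a regulator of G protein signalling, at 311, 287 and 286 TPM. Pdgfrb, the receptor for PDGF-B on mural cells, was at 230.4, 167 and 198 TPM.

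On TPM, the general macrophage list exceeded the contractile list in summed level, and on CPM it did not. The 17 general macrophage genes together held 1.31%, 1.55% and 1.60% of TPM, which was 1.15, 2.18 and 1.96 times the sum of the contractile list. On CPM, which is not divided by length, the mean sums were 0.737% for the general macrophage list and 1.09% for the contractile list, the opposite order. Lyz2, given above, made a large part of the macrophage sum. Without Lyz2 the order on TPM would be reversed in WT 1 and narrowly in WT 3, and kept in WT 2. All of these are shares of RNA over lists of different genes, not shares of cells. Besides Lyz2, the highest were Ctss, the protease cathepsin S, at 1817, 2558 and 2280.2 TPM, and the 3 chains of complement C1q. C1qb was at 1047, 1289.6 and 1206 TPM. The ratio of C1qb to C1qa was 1.23 ± 0.0564 (SD, n = 3), so these chains kept their proportion between arteries. Tyrobp, the signalling adaptor that pairs with Trem2, was at 462, 588 and 587 TPM. Cd68, a lysosomal membrane protein used to stain lesion macrophages, was at 289, 338 and 364 TPM. None of the 17 was spread. The sum was lowest in WT 1, but the order by gene depended on scaling: 14 of 17 were highest in WT 2 on TPM, beside 56.4% of all genes, and 5 after TMM factors, when 11 were highest in WT 3.

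Genes of lesion macrophages and foam cells were as abundant, at 1.32%, 1.55% and 1.60% of TPM, and 11 of the 12 were at 100 TPM or more in every library. On CPM their mean sum was 1.11%, beside 1.09% for the contractile list. Spp1 and the lysosomal protease Ctsd, at 3669.6, 3902 and 4631 TPM, made up most of that sum. Gpnmb, a lysosomal glycoprotein of lipid-laden macrophages, was at 1098, 1028 and 1576 TPM. Lgals3, galectin 3, was at 753, 837 and 1051 TPM, with WT 3 highest. Trem2, the lipid-sensing receptor of foam cells, was at 184, 219 and 269 TPM. Fabp5, a fatty acid binding protein, was at 644, 772 and 801 TPM. Of the 12 genes, 9 were highest in WT 3, and 10 after TMM factors. Mmp12, the macrophage elastase, had the widest difference of those named, at 250.3, 365 and 497 TPM.

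Genes of resident macrophages of the vessel wall made a smaller sum, at 0.157%, 0.112% and 0.150%. Gas6, a ligand of receptors for dead cells that is also made by smooth muscle, was at 729, 571 and 706 TPM. Mrc1, the mannose receptor, was at 163, 104 and 139 TPM. F13a1, a coagulation factor chain of these macrophages, was at 122, 59.5 and 118 TPM, and Lyve1, a hyaluronan receptor, at 27.8, 13.7 and 23.6 TPM. All 10 genes were lowest in WT 2 under each of the 3 scalings, and 4 of the 10 were spread, beside 16.3% of all genes. Without WT 2 their sum was 0.153% of TPM, in place of 0.140% with it.

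The 16 endothelial genes summed to 0.106%, 0.0853% and 0.128% of TPM. The contractile sum was 10.7, 8.32 and 6.37 times as large. Pecam1, the junctional adhesion molecule used as the endothelial marker, was at 272, 196 and 307 TPM and ranked 432. Vwf, von Willebrand factor, was at 142, 139 and 220.1 TPM. Cdh5, the cadherin of endothelial junctions, was at 77.2, 60.2 and 98.8 TPM. Nos3, the endothelial nitric oxide synthase, was at 33.6, 23.9 and 40.2 TPM. WT 3 was highest in 14 of the 16 genes with and without TMM factors, and 0 were spread. Genes of lymphatic endothelium were lower, with a sum of 0.0101%, 0.0122% and 0.00928% of TPM. Of these 5 genes, 4 were at 1 TPM or more in every library and 3 were spread, beside 16.3% of all genes. Prox1, the factor that defines this endothelium, was below 1 TPM in WT 3, at 1.10, 3.58 and 0.848 TPM.

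Genes typical of adventitial fibroblasts summed to 0.820%, 0.616% and 0.648%. The small proteoglycan Dcn was at 3059.7, 2239.9 and 2235 TPM and Lum at 2238, 2243 and 1888 TPM, and neither is restricted to fibroblasts. Members of the list varied to different degrees. Ly6a, a surface antigen of stromal progenitors, was at 546, 518 and 459 TPM. Dpt, dermatopontin, was at 701, 299 and 537 TPM. Pi16, a marker of adventitial progenitor-like fibroblasts, was at 503, 236 and 397 TPM. Clec3b, tetranectin, was at 194, 84.2 and 203 TPM. In Dpt, Pi16 and Clec3b WT 2 was below the other libraries, whereas Ly6a was even and lowest in WT 3. Of the 12 genes 5 were spread, beside 16.3% of all genes.

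Markers of the labelled epithelial cells were low. The 10 epithelial genes summed to 0.00246%, 0.00187% and 0.00255% of TPM. Epcam, the epithelial adhesion molecule, was at 0.564, 0.840 and 0.567 TPM on 10, 18 and 12 counts. Krt14 had 0 counts in every library, which allows a share of up to 1.35e-05%, 1.11e-05% and 1.11e-05% of counts, for counting error only. Krt18, a keratin also made outside epithelium, was the highest at 15.9, 8.25 and 16.2 TPM. Of the 10 genes, 4 were at 1 TPM or more in every library and 1 had 0 counts in all of them. The epithelial sum was therefore far below those of smooth muscle, macrophages and endothelium.

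Lymphocyte and granulocyte genes were low. T cell genes summed to 0.00865%, 0.0106% and 0.0114%, 141 to 151 times below the general macrophage genes. Cd3e, a chain of the T cell receptor complex, was at 1.94, 3.22 and 3.05 TPM on 24, 48 and 45 counts. Il7r, the interleukin 7 receptor, led the list at 48.3, 57.6 and 68.8 TPM, which was most of the T cell sum in each library. It is also made by other lymphoid cells, and the ratio of the 2 sums is not a ratio of cells. B cell genes summed to 0.00256%, 0.00267% and 0.00413%, with Cd79a, part of the B cell receptor, at 1.23, 1.38 and 3.81 TPM. Neutrophil genes summed to 0.00483%, 0.00853% and 0.00566%, led by the calcium-binding proteins S100a8 at 10.7, 31.2 and 16.6 TPM and S100a9 at 14.2, 26.6 and 14.1 TPM. Dendritic cell genes summed to 0.00496%, 0.00463% and 0.00372%. Genes of the platelet list summed to 0.00676%, 0.00881% and 0.0112%, with Pf4, platelet factor 4, at 50.6, 45.7 and 62.6 TPM. Most genes of these lists were at a few TPM, a range in which the libraries differed more.

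Cartilage and bone genes, which mark the chondrocyte-like cells of calcifying plaques, summed to 0.0866%, 0.0643% and 0.0702%. Cytl1, a secreted protein of chondrocytes, was at 305, 156 and 223 TPM. Comp, cartilage oligomeric matrix protein, was at 171, 149 and 158 TPM. Col2a1, the collagen of cartilage, was at 86.4, 53.5 and 74.1 TPM and Acan, aggrecan, at 39.2, 30.7 and 26.8 TPM. These 4 genes were present in every artery. Sox9, the factor that directs cartilage differentiation, was at 9.03, 10.4 and 9.58 TPM, and Runx2, that of bone, at 1.98, 4.04 and 3.81 TPM. Bglap, osteocalcin, had 0 counts in each library.

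**Figure D2:**
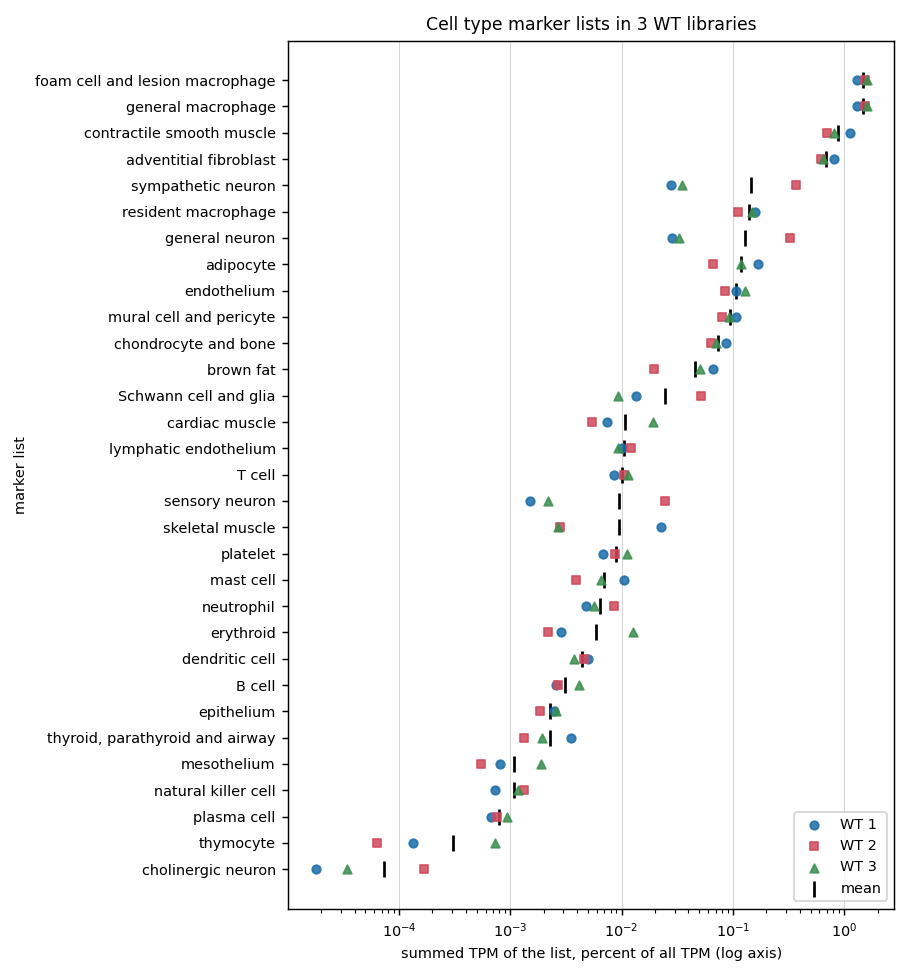
Summed TPM of each of the 31 cell type marker lists as a percent of all TPM, on a log axis, with 1 symbol per WT library and a black bar for the mean. The macrophage, smooth muscle and fibroblast lists lead. In the sympathetic and general neuron lists WT 2 lies at 11.7 and 10.7 times the mean of the other libraries, and in skeletal muscle WT 1 lies above them.

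Of the 31 cell type lists, 9 had a mean of at least 0.1% of TPM, and 7 had a median of at least that. The sympathetic and general neuron lists reached it in WT 2 only. Matricellular and adhesive matrix genes summed to 2.53%, 2.46% and 2.46%, above every cell type list. Their leading members were Mgp and Spp1, given above, and fibronectin, Fn1, which was at 3269, 3322 and 3465 TPM. Sparc, a collagen-binding matricellular protein, was at 2115, 2005 and 1918 TPM. Ctgf, connective tissue growth factor, was at 1559, 1545 and 1345 TPM. Fibrillar collagen genes summed to 0.984% ± 0.00404 of TPM (SD, n = 3), the steadiest sum among the matrix lists on TPM. This depended on scaling: the sum in WT 2 was 1.00 times the mean of the other libraries on TPM and 0.894 times after TMM factors.

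Within the fibrillar collagens the order of levels was Col3a1, Col1a2, Col1a1, Col5a2 and Col5a1. Col1a2 was at 2385, 2345 and 2422 TPM and Col1a1 at 2009, 2293 and 2398 TPM, a ratio of 1.07 ± 0.0988, so these 2 genes did not differ beyond their spread, although type I collagen holds more alpha 1 than alpha 2 chains. The ratio of Col3a1 to Col1a1 was 2.20, 1.80 and 1.62. Col5a2 was at 591, 664 and 613 TPM and Col5a1 at 325, 307 and 354 TPM. Col5a3, Col27a1, Col11a2, Col11a1 and Col24a1 had means from 2.54 to 25.2 TPM.

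Among the other collagens, Col6a1, Col18a1 and Col14a1 had the highest means. Col6a1, a chain of type VI collagen, was at 526, 395 and 411 TPM. Col18a1, the multiplexin whose fragment is endostatin, was at 431, 369.96 and 466 TPM. Col14a1, a collagen on the surface of fibrils, was at 482, 311 and 403 TPM. These 3 collagens were all lowest in WT 2. Col15a1, the gene deleted in the study's other group (chromosome 4, 47220884 to 47326037, mm9), had 12629, 12111 and 12973 counts and a level of 276, 219 and 237 TPM (244 ± 29.1 TPM as mean ± SD). It ranked 460 among all genes and the sixth of the 26 genes in this list, below Col18a1 in every library. Its highest level was 1.26 times its lowest.

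Basement membrane genes summed to 0.287%, 0.228% and 0.274%, and 19 of 20 counted members were lowest in WT 2. Col4a1 was at 549.8, 480.04 and 569 TPM and Col4a2 at 366, 348 and 408 TPM, with a ratio of 1.42 ± 0.0671. Hspg2, perlecan, was at 384, 330.1 and 419 TPM. Lamb2, the laminin beta 2 chain of muscle basement membranes, was at 341, 224 and 273 TPM. Laminin chains of epithelium stood near 0, with Lama1 at 0.134, 0.182 and 0.102 TPM and Lamb3 at 0.447, 0.462 and 0.561 TPM. Of the 20, 1 was spread.

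Elastic fibre genes summed to 0.554%, 0.408% and 0.459%. Eln, tropoelastin, was at 1784, 1287 and 1354 TPM. Fbn1, fibrillin 1, was at 492, 338 and 369 TPM. Lox, lysyl oxidase, which crosslinks elastin and collagen, was at 265, 241 and 185 TPM. Eln and Fbn1 were highest in WT 1 and lowest in WT 2, as were most contractile genes. Proteoglycan genes summed to 0.906%, 0.761% and 0.755%, and Bgn, biglycan, at 2717, 2445 and 2602 TPM, was their leading member beside Dcn and Lum. Vcan, versican, was at 73.2, 50.989 and 52.4 TPM.

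**Figure D3:**
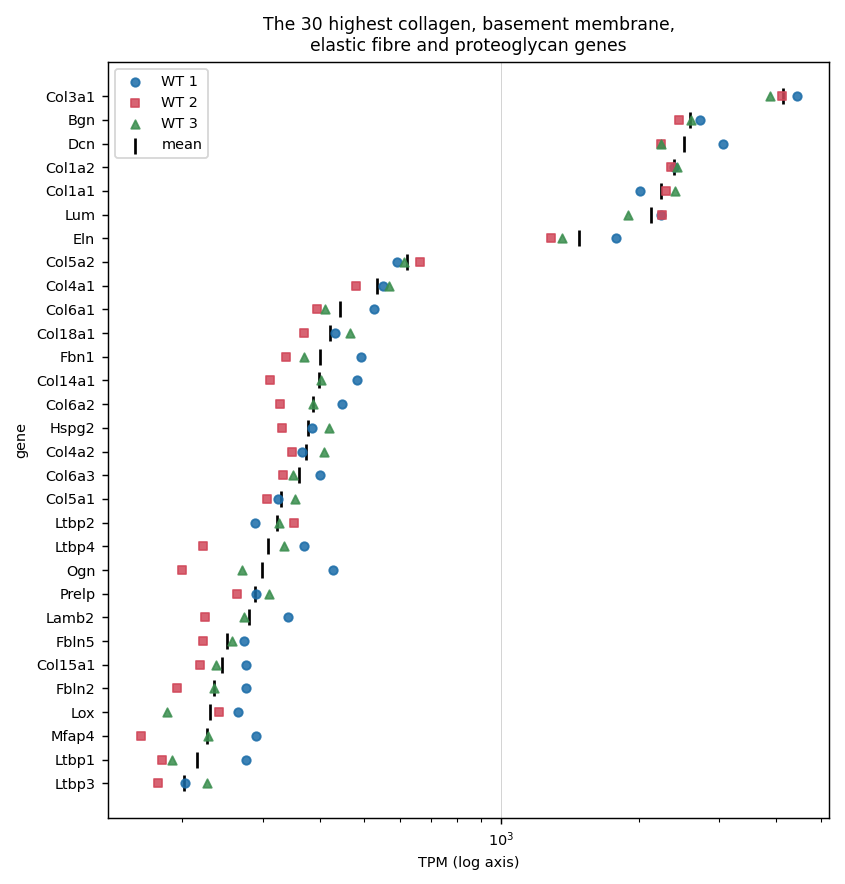
Levels of the 30 highest genes of the collagen, basement membrane, elastic fibre and proteoglycan lists, in TPM on a log axis. Each symbol is 1 WT library and the bar is the mean. Col3a1 leads, and WT 2 (squares) is the lowest library for most of the others.

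The highest means among metalloproteinases and their inhibitors were those of Timp3 and Mmp3. Timp3, an inhibitor held in the matrix, was at 1065, 761 and 775 TPM. Mmp3, stromelysin 1, was at 827, 1077 and 644 TPM, below Timp3 in WT 1 and WT 3 and above it in WT 2. Timp2 was at 688, 655 and 723 TPM and Timp1 at 510.3, 482 and 342 TPM. Mmp3 was highest in WT 2, and so was the interstitial collagenase Mmp13, with 73.2, 184 and 48.9 TPM. The gelatinase Mmp2 was at 377, 368 and 340.2 TPM, whereas Mmp9 was at 2.97, 2.39 and 2.45 TPM. Cathepsins and their inhibitor cystatin C summed to 1.36%, 1.43% and 1.59%, above the metalloproteinase list at 0.454%, 0.461% and 0.411%. Ctsl was at 2241, 1985 and 3013 TPM, Ctsb at 1739, 1851 and 2081 TPM, and the inhibitor Cst3 at 2268, 2043 and 1946 TPM. None of 13 counted cathepsin genes was spread.

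Complement genes were abundant, at 0.860%, 0.748% and 0.805%. C3, the central component, was at 1581, 1105 and 1499 TPM. Serping1, the C1 inhibitor, was at 686, 424 and 549.7 TPM. C3 and Serping1 were lowest in WT 2. Genes of MHC class II summed to 0.276%, 0.410% and 0.234%, with all 9 highest in WT 2 on TPM and after TMM factors. Cd74, the invariant chain, was at 889, 1449 and 811 TPM. H2-Aa was at 802, 1185 and 654 TPM, and its ratio to H2-Ab1 was 1.47 ± 0.0961.

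Lipid handling genes summed to 0.515%, 0.423% and 0.545%. Fabp4, a fatty acid binding protein of fat cells, capillary endothelium and macrophages, was at 1498, 559 and 1156 TPM. Lrp1, a scavenging receptor of smooth muscle cells and macrophages, was at 865, 702 and 866 TPM. Abca1, which exports cholesterol, was at 353, 384 and 434 TPM. Lpl, lipoprotein lipase, was at 337, 298 and 491 TPM. Fabp4 was lowest in WT 2, as were the adipocyte genes described below. Apoe, the apolipoprotein E gene, was named after its values were seen (chromosome 7, 20281593 to 20284537, mm9). It had 544, 802 and 597 counts and 39.9, 48.7 and 36.6 TPM, and ranked 4089, while the macrophage gene C1qb had a mean of 1181 ± 123 TPM. Its neighbour Apoc1 was at 21.4, 19.974 and 12.3 TPM. Since the labels give no Apoe genotype, these values cannot be read as the Apoe level of mice with an intact Apoe gene.

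Inflammatory mediators were modest beside these groups, with a sum of 0.118%, 0.152% and 0.114% over 24 genes. Ccl6, a chemokine of mouse macrophages, led at 214, 271 and 257 TPM. Ccl8 was at 209.6, 229.5 and 161 TPM. Cxcl12, a stromal chemokine, was at 138, 126 and 137 TPM. These leading chemokines were even between libraries, while less abundant ones were not: 11 of 24 were spread, beside 16.3% of all genes, and 4 were at least 2 times higher in WT 2 than in both others, beside 8.51% of all genes. Il1b, named after its values were seen, was at 17.4, 59.9 and 13.6 TPM. Tnf was at 3.17, 9.08 and 4.71 TPM. Cxcl10, an interferon-induced chemokine, was at 10.4, 39.3 and 8.50 TPM. Of the 24, 19 were highest in WT 2 on TPM, beside 56.4% of all genes, and 16 after TMM factors, beside 37.5%. Interferon-stimulated genes followed the same order in 14 of 15 members, on TPM and after TMM factors. Bst2, tetherin, was at 176, 233 and 171 TPM.

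Among adhesion molecules for leukocytes, Vcam1 was at 646, 516 and 489 TPM. Icam1 was at 86.2, 85.6 and 82.2 TPM and P-selectin, Selp, at 54.1, 65.2 and 68.6 TPM. None of the 10 was spread. Among growth factor receptors and ligands, receptors had the highest means: after Pdgfrb came Tgfbr2 at 173, 152 and 185 TPM and Pdgfra at 156, 115 and 134 TPM, and the highest ligand of the list, Pdgfa, was at 109, 125 and 129.96 TPM. Of 29 growth factor genes, 1 was spread. Of vasoactive genes, Ace, angiotensin-converting enzyme, led at 231, 168 and 231 TPM. Ece1, endothelin-converting enzyme, was at 172, 157 and 223 TPM. Agt, angiotensinogen, was at 0.379, 0.314 and 0.318 TPM, near the limit of detection. Mitotic genes were low and even, with Mki67, the proliferation antigen, at 17.023, 17.9 and 21.5 TPM, Top2a at 21.4, 22.3 and 22.3 TPM, and 0 of 15 spread.

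Over all 15354 genes counted, the median ratio of highest to lowest library was 1.32, with quartiles of 1.18 and 1.65 and a 95th percentile of 5.24. Without WT 2 the median was 1.14, and a ratio over fewer libraries cannot be larger, whichever library is left out. The genes called spread numbered 2503 (16.3%), and at a ratio of 1.5 there were 5019 (32.7%). At the ratio of 2, 589 (3.84%) were spread without WT 2, 1832 (11.9%) without WT 1 and 2021 (13.2%) without WT 3. WT 2 alone was at least 2 times above both other libraries for 1306 genes (8.51%) and below them for 156 (1.02%). WT 1 was above both others for 100 genes (0.651%) and below for 190 (1.24%), and WT 3 above for 61 (0.397%) and below for 126 (0.821%). Spread was most frequent at low levels: it was called for 29.9% of genes with a mean of 1 to 10 TPM, 8.21% from 10 to 100 TPM, 6.37% from 100 to 1000 TPM, and 7.5% (6 of 80 genes) above that. The common biological coefficient of variation, which is the relative variation between libraries beyond counting error as edgeR estimates it, was 0.302 over 15195 genes, and 0.133 without WT 2.

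**Figure D4:**
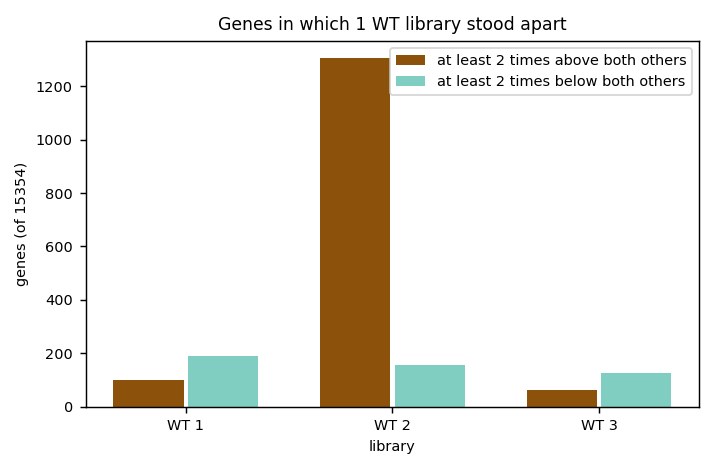
Number of genes, of the 15354 counted, in which 1 WT library was at least 2 times above (brown) or below (green) both others on TPM. WT 2 has 1306 genes above the others, and no other bar reaches 200.

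Genes of sympathetic nerve cells were among those that set WT 2 apart. The 13 sympathetic genes summed to 0.0281%, 0.371% and 0.0353% of TPM, and all 13 were at least 2 times higher in WT 2 than in both others, beside 8.51% of all genes. Without WT 2 the mean sum was 0.0317%, in place of 0.145%. Th, tyrosine hydroxylase, the rate-limiting enzyme of noradrenaline synthesis, was at 33.8, 496 and 39.2 TPM. Dbh, dopamine beta-hydroxylase, was at 43.1, 602 and 58.018 TPM. Slc6a2, the noradrenaline transporter of the nerve ending, was at 44.5, 703 and 63.4 TPM. Each was more than 10 times higher in WT 2 than in either other library, and present in those too. The ratio of Dbh to Th was 1.27, 1.21 and 1.48, so the proportion of these transcripts was much the same at low and high level.

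General neuronal genes did likewise, with 0.0286%, 0.327% and 0.0327% of TPM and 13 of 13 apart in WT 2. Uchl1, a neuronal ubiquitin hydrolase, was at 110.3, 878 and 119 TPM. Tubb3, neuronal tubulin, was at 68.8, 808 and 86.1 TPM. Stmn2, stathmin 2 of growing axons, was at 26.9, 379.6 and 31.9 TPM. Prph, peripherin, had one of the largest ratios of any gene, at 24.4, 468 and 32.1 TPM. The peptide ligand Edn3, endothelin 3, was at 6.56, 107 and 6.44 TPM. Of the 3 cholinergic genes, Chat, the enzyme of acetylcholine synthesis, had 0 counts in every library. Slc5a7, the choline transporter, was at 0.180, 1.37 and 0.338 TPM and Slc18a3, the vesicular acetylcholine transporter, at 0, 0.319 and 0 TPM, both highest in WT 2. Schwann cell and glial genes were also highest in WT 2 for 10 of 11 members, beside 56.4% of all genes, with a sum of 0.0135%, 0.0514% and 0.00921%. Fabp7, a glial fatty acid binding protein, was at 16.8, 241 and 17.2 TPM. WT 2 was also the library with the highest MHC class II, interferon-stimulated and glycolysis sums and the lowest contractile, resident macrophage and adipocyte sums, and the part of the nerve genes in these values was not tested.

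As these sympathetic genes shared an order of libraries, their promoters were searched in the same way for TGACGTCA, the full cyclic AMP response element, on both strands (the motif reads the same on each). It was found in 1 of 10 sympathetic genes with an entry and in 1.55% of all windows. The match was in Th (GRCm38.p6, chr7:142899996-142900245, minus strand), beginning at position -45 and shown in capitals.
Th: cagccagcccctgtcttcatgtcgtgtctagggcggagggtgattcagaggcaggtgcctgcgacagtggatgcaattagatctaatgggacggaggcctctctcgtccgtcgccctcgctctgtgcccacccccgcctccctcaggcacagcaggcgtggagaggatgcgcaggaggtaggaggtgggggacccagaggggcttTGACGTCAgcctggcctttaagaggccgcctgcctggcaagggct

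Adipocyte genes had the opposite order, with 0.168%, 0.0668% and 0.119% of TPM. All 12 were highest in WT 1 and lowest in WT 2, with and without TMM factors, and 10 of 12 were spread, beside 16.3% of all genes. Adipoq, adiponectin, was at 151, 48.8 and 82.97 TPM. Cfd, adipsin, a complement protease made by fat cells, was at 471, 151 and 295 TPM. Plin1, which coats lipid droplets of adipocytes, was at 123, 43.6 and 106 TPM. Genes of brown fat followed, with 0.0662%, 0.0194% and 0.0509% and all 8 counted members lowest in WT 2. Ucp1, the uncoupling protein that generates heat, was at 189, 44.1 and 146 TPM. Cidea, a lipid droplet protein of brown fat, was at 103, 33.6 and 97.9 TPM. Ucp1 was thus above Adipoq in WT 1 and WT 3 and near it in WT 2, with a ratio of 1.25, 0.903 and 1.76. Zic1, a factor of interscapular brown fat, was at 0.0694, 0 and 0.0581 TPM.

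Genes of striated muscle differed in another way. All 13 counted skeletal muscle genes were at least 2 times higher in WT 1 than in both others, beside 0.651% of all genes. Their sum was 0.0227%, 0.00283% and 0.00269%. Acta1, skeletal actin, was at 54.6, 4.72 and 2.97 TPM. Ckm, muscle creatine kinase, was at 15.4, 0.680 and 0.963 TPM. Cardiac genes, in contrast, were highest in WT 3 for 9 of 11 members, of which 8 were apart, beside 0.397% of all genes. Myl7, the atrial myosin light chain, was at 5.91, 0.979 and 40.9 TPM. Myh6, the alpha myosin heavy chain of heart, was at 0.995, 1.98 and 28.5 TPM on 52, 125 and 1782 counts, whereas the ventricular light chain Myl2 was at 2.20, 0.608 and 0.923 TPM.

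Genes of erythroid cells and of thymocytes were also apart in WT 3. Alas2, the haem synthesis enzyme of red cell precursors, was at 26.4, 20.2 and 109 TPM. Of the haemoglobin chains, Hbb-b1, Hbb-b2, Hba-a2 and Hba-a1 had 0 counts in every library. The counting command did not ask for reads that align to more than 1 place, and whether this bears on the haemoglobin values was not tested. Dntt, the terminal transferase of immature lymphocytes, was at 0.437, 0.497 and 3.06 TPM and Rag1, the recombinase, at 0.663, 0.115 and 2.48 TPM, so thymocyte genes were barely above 0 even in WT 3. Mesothelial genes, with Msln at 2.25, 1.59 and 6.12 TPM, were likewise highest in WT 3.

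Mast cell genes were scarce and were spread in 7 of 8 counted members, beside 16.3% of all genes. Cma1, mast cell chymase, was at 24.9, 4.83 and 11.9 TPM. Mcpt4, a second chymase, was at 21.963, 6.61 and 12.6 TPM. Tpsb2, tryptase, was at 20.5, 4.60 and 11.8 TPM. Cpa3, the mast cell carboxypeptidase, was at 19.9, 4.24 and 10.5 TPM on 249, 64 and 157 counts. These 4 proteases had the same order, with WT 1 highest and WT 2 lowest, while Kit, the stem cell factor receptor that other cells also make, was even at 10.3, 10.9 and 12.044 TPM. Hdc, histidine decarboxylase, which makes histamine, had another order, with 1.45, 5.53 and 2.48 TPM, and Mrgprb1, a mast cell receptor, was highest in WT 3, at 1.36, 0.506 and 1.51 TPM. The promoters of the list were searched for AGATAA, a motif of GATA factors, on both strands. It was found in 3 of 8 genes with an entry (Cpa3, Fcer1a and Ms4a2), and in 9.99% of all windows. Tpsab1 and Tpsb2 had no entry. That of Cpa3 (GRCm38.p6, chr3:20242182-20242431, minus strand) is shown, since Cpa3 is among the proteases of that common order, with the motif at position -46 in capitals.
Cpa3: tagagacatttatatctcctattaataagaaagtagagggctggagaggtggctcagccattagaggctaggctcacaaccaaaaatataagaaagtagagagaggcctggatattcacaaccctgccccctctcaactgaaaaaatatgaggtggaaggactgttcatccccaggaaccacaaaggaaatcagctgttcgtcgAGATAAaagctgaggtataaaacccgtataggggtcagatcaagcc

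Cytosolic ribosomal protein genes held 5.72% ± 0.132 of TPM (SD, n = 3), with 0 of 79 counted genes spread. Rplp1, a protein of the ribosomal stalk, led at 2198, 2139.9 and 2113 TPM. Glycolysis genes summed to 0.322%, 0.455% and 0.307%, with 12 of 17 counted genes highest in WT 2 on TPM, beside 56.4% of all genes, and 11 after TMM factors, beside 37.5%. Pkm, pyruvate kinase, was at 661, 917 and 682 TPM. Aldoa, aldolase A, was at 638, 948 and 593 TPM. Nuclear genes of oxidative phosphorylation summed to 1.44%, 1.56% and 1.24%, and here the order depended on scaling: 55 of 81 were highest in WT 2 on TPM, beside 56.4% of all genes, and 45 in WT 1 after TMM factors, beside 28.7%. The median gene of WT 2 lay 0.09 above the mean of the 3 libraries on the log2 scale with TPM, and at -0.01 after TMM factors, so differences of that size between libraries depend on the scale. Some genes of general function had nearly no counts, such as Eno1, enolase, with 2, 3 and 3, a gene with near-identical copies whose level here is uncertain.

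**Figure D5:**
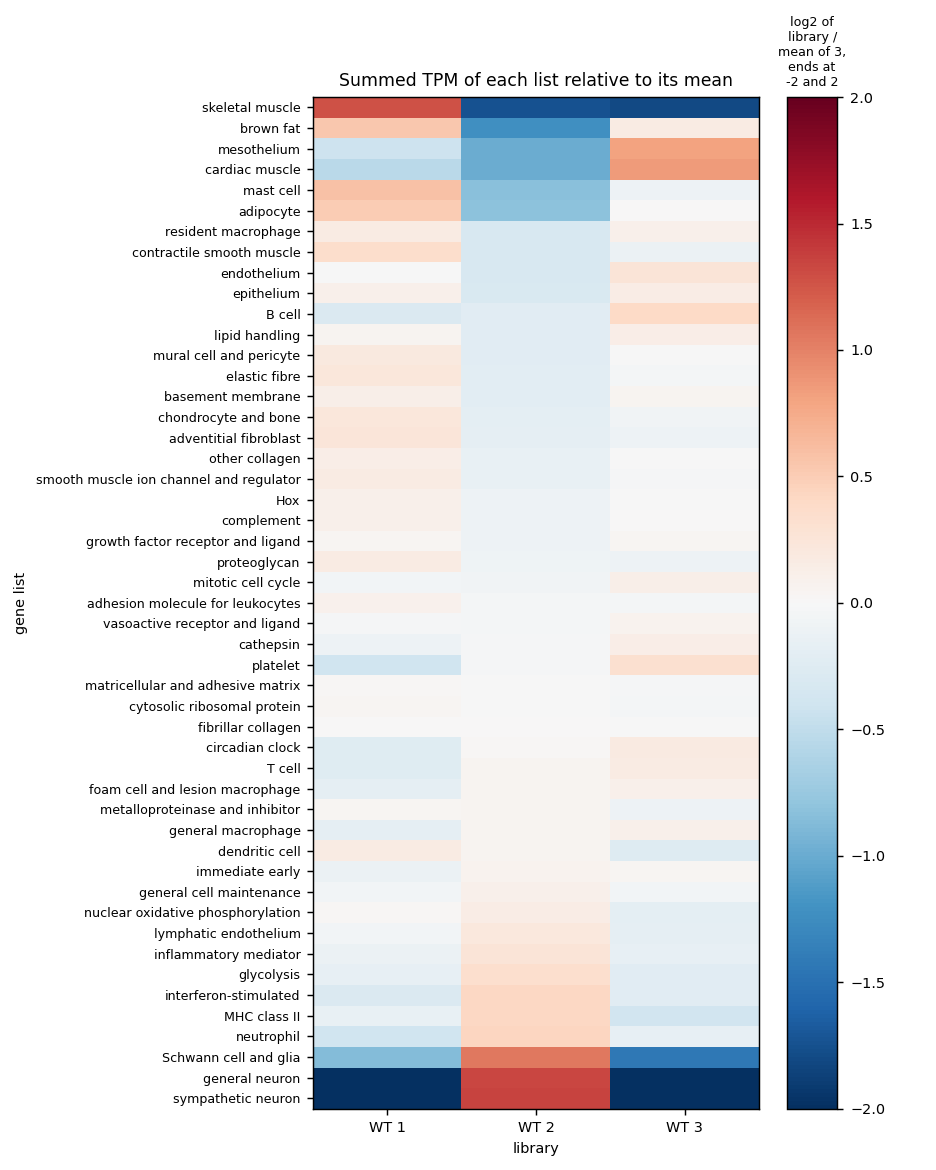
Summed TPM of each gene list with at least 5 counted members in each WT library, as log2 of the library over the mean of the 3, from blue (lower) to red (higher) with a scale that saturates at its ends. Lists are ordered by WT 2. The neuron, Schwann cell and skeletal muscle lists are strongly coloured, while the collagen and ribosomal protein lists are near white.

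Among the least variable genes with a mean of at least 100 TPM were Rpl37a, Msn, Angptl2, Adam9, Hnrnph1, Rps7, Tmem14c, Rps6, Akap13 and Sdc1. Rpl37a, a protein of the large ribosomal subunit, was at 878, 875 and 877 TPM. Msn, moesin, which links the membrane to actin, was at 427, 429 and 426 TPM. Angptl2, a secreted angiopoietin-like protein, was at 152, 155 and 154 TPM. At the other end, the 12 genes furthest above in WT 2 were Prph, Gap43, Edn3, Cyp2j12, Tmem59l, Tm4sf4, Nefl, Syt4, Stmn3, Zcchc12, Ckmt1 and Ppp2r2b. Those furthest above in WT 1 included Acta1, Tnnc2, Mylpf and Npas2, and those in WT 3 Alas2, Myl4, Myl7 and Myh6. Of the 12 genes named as lowest in WT 1, 11 were under 200 bases long, as were 7 in WT 2 and 8 in WT 3. Most of these short genes were hairpins or small nucleolar RNAs with few counts, for which counting error is large. Ppbp, a platelet chemokine, was the longer gene among those of WT 1, at 6.03, 23.9 and 27.2 TPM.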

How the data were processed

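RNA sequencing counts of 3 WT arteries were used. Per the file headers, the authors used featureCounts 1.4.6-p4 to count reads on exons by gene name (UCSC annotation, mm9), and the deposited values are raw counts with no normalization. The command set nothing for strand, read pairs or multiple alignments, so antisense or overlapping genes and near-identical copies are uncertain. STAR (version 3.0), CASAVA, DESeq2 and Subread also appear in the submitters' processing notes, without their roles. Of alignments, 33.6% to 36.9% were assigned to genes. The table of WT columns had 0 unused sample columns. Gene types came from RefSeq by symbol (24283 of 24391 matched), and promoters from RefSeq GRCm38.p6, a build other than that of the counts, so no coordinates were carried over.

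TPM was computed from the counts and the deposited exonic length, and CPM from the counts. Values are mean ± SD over 3 animals. TMM factors and the coefficient of variation came from edgeR 4.0.16 in R 4.3.3 (intercept only), and other steps from Python 3.11.15 with pandas 2.3.3 and scipy 1.17.1. The steps were tested on simulated data. In total 56 gene lists were used (31 of cell types), and the lists and the libraries were chosen with earlier results of these data known. Ly6g, Ahsp and Muc16 of the lists are not in the table and were not used.

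Genes named were Myh11, Acta2, Lgals3, Pecam1 and Col15a1; the 25 highest in mean TPM with a length of at least 200 bases; up to 5 highest members per list; up to 12 genes per library and direction with the largest ratio to the nearest other library, at a mean of at least 5 TPM; the 12 of smallest coefficient of variation at a mean of at least 100 TPM; and markers of other cell types. Any other gene was picked with its values in view. Alternatives tried were other lengths, scalings, filters and ratios, and leaving out each library. Some genes covered by these rules are not reported here.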

Additional observations from a re-analysis of the deposited data

How the results depend on the processing

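The results depend on length correction and on WT 2. On CPM, which ignores gene length, 49 of the 100 most abundant genes were shared with the TPM list, and the general macrophage sum fell below the contractile one. Of the list sums, 33 moved on CPM by at least their SD between libraries and 23 did not. The cytosolic ribosomal protein sum was 1.65% in place of 5.72%, basement membrane 0.778% in place of 0.263%, and fibrillar collagen 2.05% in place of 0.984%. The 100 genes highest on CPM held 29.6% of CPM, and the 100 highest protein-coding genes 23.6% of TPM over such genes, an alternative chosen after seeing the data. All other settings tried kept 86 to 99 of the 100. The number of spread genes was 5019 at a ratio of 1.5, 1360 at a ratio of 3, 3776 with a count in each library as the only filter, and 1308 with a mean of at least 100 counts. Leaving out each library gave 589 to 2021 spread genes and a common biological coefficient of variation of 0.133 to 0.341, with the lowest values without WT 2. Without WT 2 the list sums of sympathetic neurons, general neurons and Schwann cells were 0.0317%, 0.0307% and 0.0114%, without WT 1 that of skeletal muscle was 0.00276%, and without WT 3 that of cardiac muscle was 0.00637% and of erythroid cells 0.00252%. Genes with a mean of 1 to 10 TPM had a median of 98.3 counts in the mean library. How far depth limited these genes, or those shorter than 200 bases, was not tested. No paired analysis was possible because there was 1 group and no test.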

Other observations

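Some genes of the circadian clock differed between the 3 arteries, and those named here are from groups known to peak at opposite phases. Arntl, the core activator also called Bmal1, was at 25.2, 11.018 and 10.7 TPM. Npas2, which pairs with it, was at 17.4, 4.01 and 5.19 TPM. Clock was at 43.8, 34.8 and 30.976 TPM. These activators were highest in WT 1. Dbp, a target of the activators, was at 21.2, 47.02 and 61.8 TPM. Per3, a repressor, was at 19.7, 32.2 and 45.1 TPM, and Per1 at 20.1, 28.9 and 43.2 TPM. Dbp, Per1 and Per3 were lowest in WT 1 and highest in WT 3. Of the 14 clock genes, 3 were highest in WT 1, 4 in WT 2 and 7 in WT 3, so not all followed these orders. Spread was called for 7 of them, beside 16.3% of all genes. The labels give no time of collection, and its part in these values was not tested.

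Hox genes, which record position along the body, were expressed from the early-numbered members of the clusters. Hoxb2 was at 12.8, 7.21 and 10.04 TPM. Hoxb4 was at 9.56, 8.14 and 11.4 TPM. Hoxb3 was at 10.4, 6.98 and 9.05 TPM, and Hoxa2 and Hoxa3 were the next highest, at 8.36 ± 1.22 TPM and 8.28 ± 0.883 TPM (mean ± SD, n = 3). Of 39 Hox genes, 13 were at 1 TPM or more in every library and 12 had 0 counts in all of them. Genes of the AP-1 family and other immediate early genes were even, with 0 of 16 spread, and Junb, the highest, was at 114, 137 and 111 TPM.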
